A study of Mus musculus with 6 samples.

Results

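Voltage-gated ion channels and their relatives were read here as a family of 62 genes, in spinal cord of mice with and without a mutant SOD1 transgene. They are the genes with exactly 1 annotated symbol that starts with Kcn, Scn, Cacna, Cacnb, Cacng or Hcn followed by the family's letter or digit, out of 8251 genes with 1 symbol on the array. Epithelial sodium channel (Scnn) genes were outside the rule, and Scnm1, the 1 other symbol with such a prefix, belongs to no channel family and was left out. The 62 genes had 75 probe sets, and the probe set with the highest mean stood for its gene. The symbols reach beyond channels gated by voltage, since they also take in inward rectifier (Kcnj) and two-pore (Kcnk) potassium channels, calcium-activated ones, and subunits that form no pore.

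The study placed RNA from 3 genotypes at 2 ages, 75 and 110 days, on 6 Affymetrix arrays, 1 array for each genotype and age, and each array carried poly(A) RNA from 4 spinal cords. Nontransgenic mice are labelled B6SJL. Mice with the unmutated transgene, WT-SOD1, are labelled as B6SJL WT-SOD1 transgenics at 75 days, with no strain label at 110 days. The G93A-SOD1 mice carried the mutant form and are labelled B6SJL-G93A-SOD1 at 75 days and B6SJL-G93A-SOD1H at 110 days. According to the submitters, mutant mice had no symptoms at the younger age and tremor with partial paralysis at the older one, while WT-SOD1 mice stayed healthy, so nontransgenic and WT-SOD1 arrays are called disease-free below. The sex of the mice and the promoter of the transgenes are not given in the sources used here. No genotype had a second array at an age, and a value from whole cord cannot tell fewer cells of a type from less RNA per cell.

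These channels set how a neuron fires. Sodium channel alpha subunits carry the upstroke of the action potential, potassium channels repolarise the membrane and set its resting level, calcium channels couple firing to transmitter release and gene expression, and HCN channels pass a cation current at negative potentials. Beta and other auxiliary subunits form no pore, and they change the trafficking and kinetics of the alpha subunits they bind. In myelinated axons of the cord, sodium channels gather at the nodes of Ranvier and Kv1 potassium channels with their beta subunits under the adjoining myelin. Altered excitability of motor neurons is a known feature of this disease model.

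Levels are deposited linear intensities, with values up to 31, the 25th percentile of all values, treated as background and raised to that floor. Of the 62 genes 45 (72.6%, against 80.4% of all genes) lay above the floor on all 6 arrays, 5 on some arrays, and 12 on none. A gene was tested where its mean log2 level exceeded that of the pooled median of 79.7, which held for 32 channel genes (51.6%, against 58.9% of all genes). The differences below are on the log2 scale, with the moderated standard error (SE) and adjusted p of limma, over 6211 probe sets. Their spread comes from the differences between the nontransgenic and the WT-SOD1 array of an age, so it is a spread between arrays of different genotype and not between replicates. The number of arrays limits the precision of every value below.

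Median intensity per array lay between 77.7 and 80.9. The mean of the bacterial spike-in controls was 461 for nontransgenic cord at 75 days and 608 for WT-SOD1 cord at 110 days, and 254 to 330 elsewhere. Both disease-free arrays with more spike-in signal were above the other pair for 12 of 32 tested channel genes (21% of all genes) and below it for 5 (30% of all genes). They also had the higher summed level of 10 cerebellar marker genes, 6146 and 6650 against 4644 and 4772 in the other disease-free pair, with 3831 and 3425 in mutant cord at 75 and 110 days. None of 11 neuronal markers and none of 9 oligodendrocyte markers lay at the floor on all arrays, and of 6 motor neuron markers Isl1 did. The summed neuronal markers read 11347 to 12542 in disease-free cord, 10136 in mutant cord of 75 days and 9669 in that of 110 days.

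Across the family the question was whether channel transcripts differed in mutant cord before and after symptoms began. At 110 days 0 of 32 tested channel genes passed the limma test in either direction, while 0.934% of all probe sets tested passed as higher and 0.0966% as lower. At an unadjusted p under 0.05 there were 4 lower and 1 higher channel genes, where 5.84% of all probe sets were lower and 4.09% higher at that limit. The smallest adjusted p among channel genes was 0.161. The median difference over the 32 genes was -0.10, with 21 of them below 0, and over all 4856 genes tested it was -0.03. At 75 days 0 of 32 passed as well (0% of all probe sets passed), and 6 were lower and 1 higher at an unadjusted p under 0.05, against 6.49% and 3.11% of all probe sets. The median was then -0.05, beside -0.04 for all genes, and it was -0.085 without the WT-SOD1 75-day array. Without the WT-SOD1 110-day array, 5 channel genes passed at 110 days, Kcnab1, Kcnab2, Kcnd2 and Scn1a as lower and Kcne1l as higher, where 5.46% of all probe sets passed as lower and 2.27% as higher. The older mutant array then stood against the nontransgenic 110-day array alone, which was the highest of all 6 for those 4 lower genes. With a term for the spike-in level 3 passed, Kcnab1 and Kcnab2 as lower and Kcne1l as higher, beside 2.43% and 2.09% of all probe sets. That term takes up part of the spread between nontransgenic and WT-SOD1 arrays on which the test rests.

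A family median of this size also occurred among disease-free arrays. Relative to the mean of the 4 disease-free arrays, the median channel gene stood at -0.10 on the nontransgenic array of 110 days, at -0.11 on the G93A-SOD1 array of 110 days and at -0.01 on that of 75 days. The other disease-free arrays gave 0.05, 0.00 and 0.00. The members did not move as a block. The genes are described next by role.

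**Figure D1:**
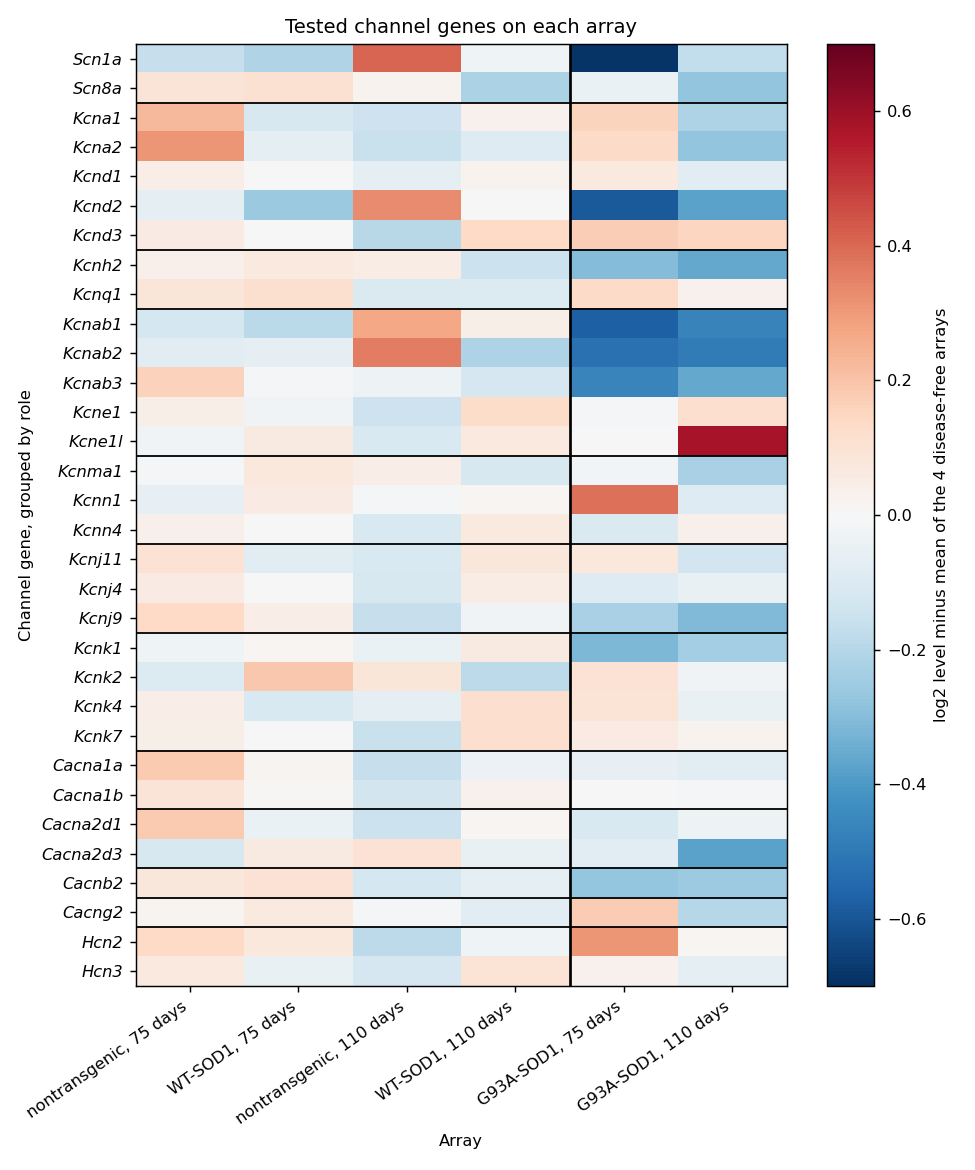
The 32 tested channel genes (rows, grouped by role between black lines) on the 6 arrays (columns), coloured by log2 level minus the mean of the 4 disease-free arrays, red above and blue below. The 3 Kcnab genes, Kcnd2, Kcnh2, Kcnj9, Kcnk1 and Cacnb2 are blue on both G93A-SOD1 arrays, right of the vertical line, while Kcne1l is strongly red on the 110-day G93A-SOD1 array.

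The cytoplasmic beta subunits of Kv1 channels gave the clearest pattern. Kcnab1, Kcnab2 and Kcnab3 encode these subunits, which resemble aldo-keto reductases and bind the inner face of the channel. Kcnab1 intensity was 195 in nontransgenic and 186 in WT-SOD1 cord at 75 days, 256 and 219 in the same genotypes at 110 days, and 143 and 153 in mutant cord of the younger and older age. Both mutant arrays lay below all disease-free ones. The difference was -0.63 ± 0.15 SE at 110 days (adjusted p = 0.161, unadjusted p = 0.00378), which is 1.54-fold lower, and -0.42 ± 0.15 SE at 75 days (adjusted p = 0.501).

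Kcnab2 read 617 and 625 on the nontransgenic and WT-SOD1 arrays of 75 days, 834 and 562 on those of 110 days, and 454 and 464 on the mutant arrays in order of age. The groups did not overlap here either, but the disease-free pair of 110 days was far apart. Its difference was -0.56 ± 0.22 SE at 110 days (adjusted p = 0.475) and -0.45 ± 0.22 SE at 75 days (adjusted p = 0.56). A second Kcnab2 probe set, of a kind that can cross-hybridise, stood at -0.37 at 110 days and at 0.05 at 75 days, so the direction at the younger age depended on the probe set. A second Kcnab1 probe set, too dim to be tested, was lower at both ages (-0.23 and -0.10 at 110 and 75 days).

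For Kcnab3 the disease-free arrays gave 169 and 150 at 75 days and 148 and 140 at 110 days, in the same genotype order. The mutant arrays gave 110 and 118. Kcnab3 had the lowest difference of the 32 tested channel genes at 75 days, -0.54 ± 0.14 SE (adjusted p = 0.473, unadjusted p = 0.00657), and stood at -0.29 ± 0.14 SE at 110 days (adjusted p = 0.598). By these probe sets the 3 genes lay below the disease-free range at both ages, as 15.2% of all genes tested did, and none of them passed the test at either. The second Kcnab2 probe set read 333 on the 75-day mutant array, inside its disease-free range of 311 to 381.

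Of the single-span auxiliary subunits, Kcne1l read higher on the 110-day mutant array, without passing the test. Its product KCNE5 modulates KCNQ channels. Kcne1l read 129 and 137 on the nontransgenic and WT-SOD1 arrays at 75 days, 122 and 137 at 110 days, 131 in mutant cord at the younger age and 196 at the older. The 110-day mutant array stood alone, and the other 5 lay close together. Its difference at 110 days was 0.60 ± 0.14 SE (adjusted p = 0.163, unadjusted p = 0.00388), or 1.51-fold higher, against -0.02 at 75 days. On the same array 13 microglia and macrophage markers summed to 9550, against 2346 to 2875 on the disease-free arrays and 2699 on the mutant array at 75 days, and their part in the Kcne1l value was not tested. Kcne1, which encodes a related subunit, read 72.2 to 87.4 on all 6 arrays. Kcnmb1, the beta subunit gene of the BK channel, was at or under the floor on every array.

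**Figure D2:**
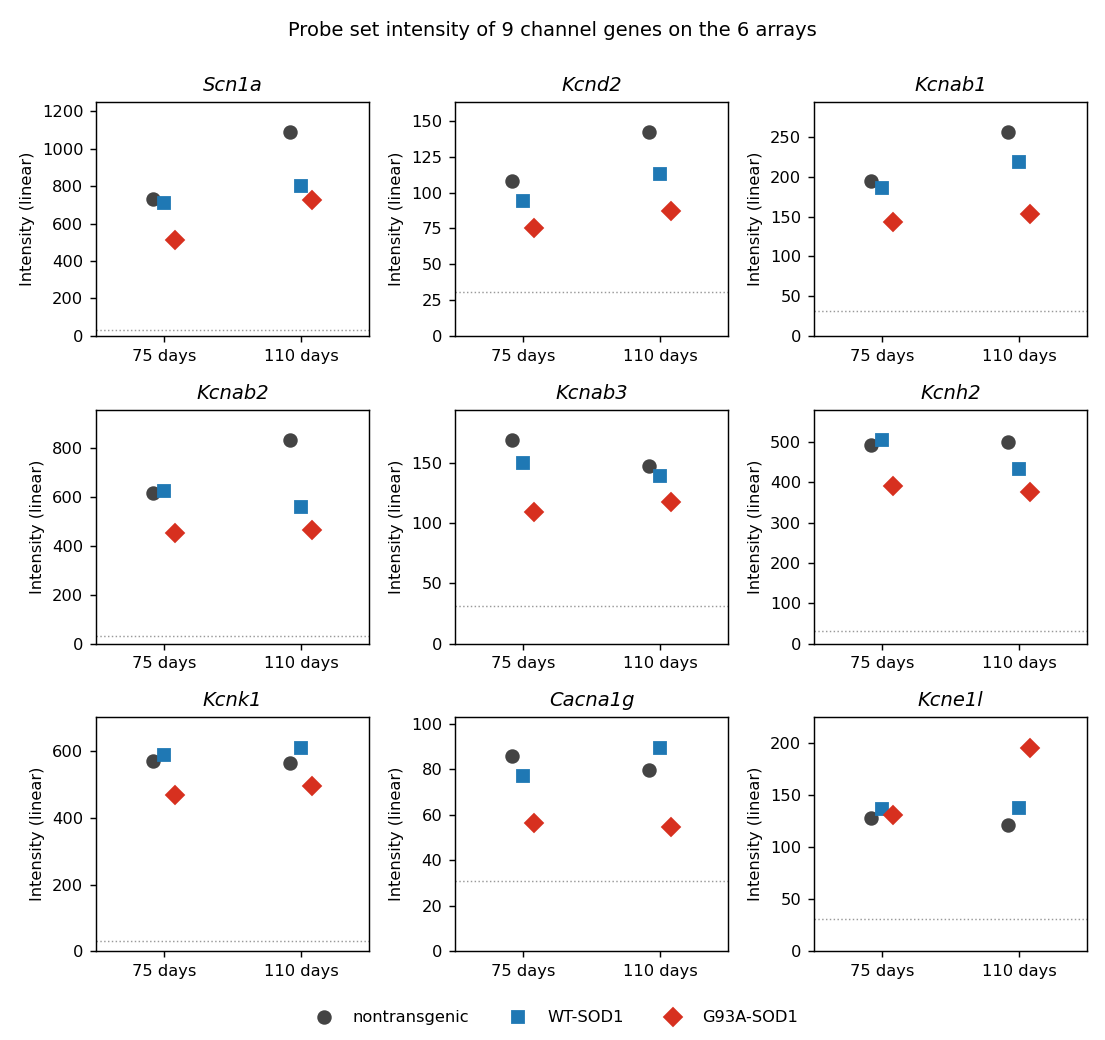
Intensity (linear, y axes from 0) of 9 channel genes on the 6 arrays, by age, with 1 point for each genotype; the dotted line is the floor of 31. For Kcnab1, Kcnab2, Kcnab3, Kcnd2, Kcnh2, Kcnk1 and Cacna1g both G93A-SOD1 points lie under all 4 disease-free points, and for Kcne1l the 110-day G93A-SOD1 point lies above all others.

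Promoters are shown for the 4 tested channel genes with the largest differences at 110 days. These were Kcnab1, Kcnab2 and Kcnd2 on the lower side and Kcne1l on the higher. A GC box in all 4 is not a trait of the lower or higher genes as a group. Each run is the 250 bases before the most upstream start of the gene in GRCm38.p6, 5′ to 3′ on the gene's strand, and capitals mark the GC box GGGCGG on either strand, a binding site of Sp1-type factors. Kcnab1 (chr3:64948962-64949211, plus strand) holds 2 such matches. Kcnab2 (chr4:152477550-152477799, minus strand), Kcnd2 (chr6:21215096-21215345, plus strand) and Kcne1l (chrX:142306199-142306448, minus strand) hold 1 each.
Kcnab1: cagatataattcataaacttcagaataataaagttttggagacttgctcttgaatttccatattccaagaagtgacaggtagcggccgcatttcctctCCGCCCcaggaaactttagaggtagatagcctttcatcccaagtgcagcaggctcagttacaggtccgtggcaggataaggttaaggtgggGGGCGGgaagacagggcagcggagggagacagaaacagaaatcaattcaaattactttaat
Kcnab2: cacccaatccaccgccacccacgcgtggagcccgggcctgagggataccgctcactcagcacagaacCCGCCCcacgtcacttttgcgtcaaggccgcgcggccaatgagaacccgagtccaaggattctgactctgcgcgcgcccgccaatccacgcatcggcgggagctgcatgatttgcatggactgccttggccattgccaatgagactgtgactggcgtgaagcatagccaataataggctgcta
Kcnd2: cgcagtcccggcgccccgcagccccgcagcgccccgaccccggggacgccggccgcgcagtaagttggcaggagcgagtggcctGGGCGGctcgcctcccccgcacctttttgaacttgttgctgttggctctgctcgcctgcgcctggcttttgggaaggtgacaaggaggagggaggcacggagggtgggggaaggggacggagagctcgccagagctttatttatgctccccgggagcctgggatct
Kcne1l: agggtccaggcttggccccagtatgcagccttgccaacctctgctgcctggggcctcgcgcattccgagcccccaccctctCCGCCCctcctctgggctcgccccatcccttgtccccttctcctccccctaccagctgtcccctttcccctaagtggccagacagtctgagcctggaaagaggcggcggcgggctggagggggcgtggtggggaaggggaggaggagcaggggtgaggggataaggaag
Of the 62 genes 47 had a promoter of that length, and 24 of these 47 (51.1%) held the GC box, against 33% of all 27025 such promoters. Among the 24 tested channel genes with a promoter, 15 (62.5%) held it, and the share among all tested genes was not taken. The TATA box TATAAA was found in 1 of the 47, Kcnj9 (2.13%, against 13% of all), and the cAMP response element TGACGTCA in 0 (1.60% of all). The channel promoters were also richer in G and C, with a median of 62% against 52%, which alone makes GGGCGG more frequent. Of the other genes outside the disease-free range at both ages, Kcnh2 and Cacnb2 held the GC box, and Kcnj9, Kcnk1 and Kcnd3 did not, nor did Scn1a. Kcnab3, also below that range at both ages, was not among the 47 genes with a promoter. A match in these windows is a description of letters and says nothing of binding, and the array does not tell which start of Kcnab1 or Kcnab2 was used.

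Among sodium channels the rule found 6 alpha subunit genes and no beta subunit gene. Scn1a, encoding Nav1.1 of fast-firing interneurons and motor axons, read 732 and 708 on the nontransgenic and WT-SOD1 arrays at 75 days and 1086 and 801 at 110 days. It read 510 and 727 on the mutant arrays of 75 and 110 days. By this probe set the younger mutant array was below all disease-free arrays, while the older one was within their range. The difference was -0.50 ± 0.19 SE at 75 days (adjusted p = 0.501) and -0.36 ± 0.19 SE at 110 days (adjusted p = 0.636). Its probe set is of a kind that can cross-hybridise, and a second one of the usual kind gave -0.74 and -0.47, in the same direction. That second probe set read 346 to 560 on the disease-free arrays. It read 237 and 319 on the mutant arrays of 75 and 110 days, both below that range. Scn8a encodes Nav1.6, the main sodium channel of mature nodes of Ranvier. Its intensities were 211 and 213 at 75 days and 201 and 170 at 110 days on the disease-free arrays, and 191 and 163 on the mutant arrays, with differences of -0.15 ± 0.15 and -0.18 ± 0.15 SE at 75 and 110 days. The 110-day mutant value was just below the lowest disease-free one, and the other lay within their range. Scn3a, Scn7a, Scn9a and Scn10a lay at or under the floor on all 6 arrays, Scn9a and Scn10a being known from sensory ganglia.

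The pore-forming Kv1 to Kv4 genes numbered 11, of which 5 were tested. Kcnd2 encodes Kv4.2, a channel of the A-type current in dendrites. On the disease-free arrays Kcnd2 read 108 and 94.3 at 75 days and 142 and 113 at 110 days, and on the mutant arrays 75.2 and 87.4. Mutant and disease-free values did not overlap. The difference was -0.53 ± 0.18 SE at 110 days (adjusted p = 0.347) and -0.43 ± 0.18 SE at 75 days (adjusted p = 0.516). The probe set of Kcnd2 is of a kind that can cross-hybridise, and a second one lay at or under the floor on 5 of 6 arrays. Kcnd3, encoding the related Kv4.3, went the other way: it read 192 and 189 on the mutant arrays and 149 to 188 on the disease-free ones, a difference of 0.18 ± 0.17 SE at 110 days (adjusted p = 0.898). It was the 1 tested channel gene above the disease-free range at both ages, by a narrow margin.

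Kcna1 and Kcna2 encode Kv1.1 and Kv1.2, the alpha subunits that pair with the beta subunits described above. Kcna1 read 1244 and 982 at 75 days and 962 and 1084 at 110 days on nontransgenic and WT-SOD1 arrays, and 1181 and 916 on the mutant arrays. Kcna2 read 124, 95.3, 89.7 and 93.9 on the disease-free arrays in that order, and 109 and 82.2 on the mutant arrays. Each had its lowest value on the 110-day mutant array, but the differences were -0.16 ± 0.18 SE at 110 days for both and 0.10 and 0.01 at 75 days. These were smaller than the gap between the disease-free arrays of 75 days. Of the dimmer members Kcna3, Kcna5, Kcna6, Kcna7 and Kcnc1, none was tested, and Kcna4 lay at the floor throughout.

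Kcnh2 encodes the ERG channel of a repolarising current. Kcnh2 intensity was 494 and 505 at 75 days and 501 and 434 at 110 days on the disease-free arrays, and 391 and 376 on the mutant arrays. Both mutant values lay below the 4 others. Its difference was -0.31 ± 0.15 SE at 110 days (adjusted p = 0.551) and -0.35 ± 0.15 SE at 75 days (adjusted p = 0.511). Kcnq1, of the KCNQ group, stood at 0.13 ± 0.13 SE at 110 days, by a probe set of a kind that can cross-hybridise. A dimmer Kcnq1 probe set of the usual kind, not tested, stood at -0.05. Kcnh1 was too dim to be tested.

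Among channels opened by calcium, Kcnma1, the BK channel gene, read 186 to 212 on the disease-free arrays and 199 and 172 on the mutant arrays at 75 and 110 days (difference -0.19 ± 0.14 SE at 110 days, adjusted p = 0.795). Kcnn1, encoding the SK1 channel of the afterhyperpolarisation, read 231, 250, 239 and 243 in disease-free cord, and 314 and 226 in mutant cord of the younger and older age. It was above all others at the younger age and below them at the older. Its difference at 75 days was 0.38 ± 0.13 SE (adjusted p = 0.501), the largest positive one among the 32 tested genes at that age, and -0.09 ± 0.13 SE at 110 days. Kcnn4, an SK4-type channel gene also known from microglia, read 89.6 to 101 on all 6 arrays.

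Of 11 inward rectifier genes 5 were at or under the floor on every array and 3 were tested. Kcnj9, a subunit of the G protein-gated GIRK channels, read 155 and 145 at 75 days, 126 and 138 at 110 days and 120 and 114 on the mutant arrays. The mutant values were the lowest 2 of the 6. The difference was -0.32 ± 0.14 SE at 75 days (adjusted p = 0.522) and -0.22 ± 0.14 SE at 110 days (adjusted p = 0.74). A second Kcnj9 probe set, too dim to be tested, read 36.3 on the 75-day mutant array and 79.7 to 88.7 on the other 5. Kcnj11 and Kcnj4 differed by at most 0.12 in either direction at both ages.

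Of the two-pore channels, which set the resting potential, Kcnk1 (TWIK-1) had the lower values. Kcnk1 read 573 and 590 at 75 days and 565 and 611 at 110 days on the disease-free arrays, which lay close together, and 470 and 496 on the mutant arrays. The differences were -0.31 ± 0.13 SE at 75 days (adjusted p = 0.531) and -0.24 ± 0.13 SE at 110 days (adjusted p = 0.663). Kcnk2, Kcnk4 and Kcnk7 lay within the disease-free range on both mutant arrays. Kcnk3 was too dim to be tested, and read 56.3 on the 75-day mutant array against 37.0 to 44.3 on the other arrays.

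Calcium channel genes of the cord's main presynaptic channels did not stand apart. Cacna1a (P/Q type) read 73.5 to 93.4 and Cacna1b (N type) 134 to 156 on the disease-free arrays, and the mutant arrays lay within those ranges. Cacna1g encodes the T-type channel Cav3.1, had a mean level just under the limit for testing, and was chosen here after its values were seen. It read 85.7 and 77.0 at 75 days and 79.7 and 89.5 at 110 days on the disease-free arrays, and 56.3 and 54.4 on the mutant arrays. The mutant values lay apart from the rest, at -0.53 and -0.63 at 75 and 110 days. In a fit with no filter on level, its adjusted p was 0.505 and 0.494 (0.403% and 0.338% of all 12422 probe sets passed). Within the disease-free arrays Cacna1g was higher on the 2 with the higher cerebellar markers given above, and the part of those cells was not tested. Cacna1s, of skeletal muscle, lay near the floor.

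Auxiliary calcium channel subunits gave a mixed picture. Cacna2d3, an alpha2delta subunit gene, read 239 and 269 at 75 days, 276 and 248 at 110 days, and 245 and 199 on the mutant arrays. Its difference was -0.40 ± 0.15 SE at 110 days (adjusted p = 0.431) and -0.05 at 75 days, and the change between ages did not pass either (-0.35, adjusted p = 0.998). Cacnb2, a cytoplasmic beta subunit gene, read 124 and 126 at 75 days, 108 and 112 at 110 days, and 97.1 and 98.3 on the mutant arrays, both below the 4 others. Its difference was -0.36 ± 0.13 SE at 75 days (adjusted p = 0.501) and -0.16 ± 0.13 SE at 110 days. Cacng2 encodes stargazin, a protein that carries AMPA receptors to the synapse. It read 321 to 356 on the disease-free arrays, 384 on the mutant array at 75 days and 295 at 110 days, which is above them at one age and below them at the other. Cacna2d1 differed by -0.18 and 0.04 at 75 and 110 days.

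HCN channels carry the hyperpolarisation-activated current. Hcn2 read 1399 and 1338 at 75 days and 1118 and 1247 at 110 days on the disease-free arrays, and 1575 and 1283 on the mutant arrays. The difference was 0.20 ± 0.14 SE at 75 days (adjusted p = 0.668) and 0.12 ± 0.14 SE at 110 days, where a second probe set stood at -0.15. Both Hcn2 probe sets are of a kind that can cross-hybridise. Hcn3 differed by at most 0.06 in either direction.

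Values in mutant cord were next read at both ages together, each mutant array against the same 4 disease-free arrays, so the 2 readings share their controls. On the G93A-SOD1 arrays of both ages 8 of 32 tested channel genes lay below all 4 disease-free arrays, Kcnab1, Kcnab2, Kcnab3, Kcnd2, Kcnh2, Kcnj9, Kcnk1 and Cacnb2, against 15.2% of all genes tested. One of 32, Kcnd3, lay above them at both ages (5.6% of all genes). Among second probe sets that were tested, that of Scn1a also lay below all 4 disease-free arrays at both ages. Those of Kcnab2 and Hcn2 did not. At 75 days alone 9 lay below (35% of all genes) and 6 above (22.7%), and at 110 days 17 below (27.2%) and 2 above (16%). The share below the disease-free range was thus 53.1% at 110 days, by gaps of 0.01 (Kcnd1) to 0.28 (Kcnab1). The size of such gaps was not read over all genes. At 110 days the difference exceeded the whole span of the disease-free arrays for 8 of 32, or 25%, beside 20.5% of all genes, and at 75 days for 6 of 32, beside 23.2%. With each mutant array set against the disease-free pair of its own age, which share no array, 13 of the 32 genes (40.6%) had a difference below 0 at both ages and 5 (15.6%) above 0, compared with 37.7% and 22.9% of all genes. Across the 32 genes the differences at 75 and 110 days correlated at r = 0.60, and across all 4856 genes at r = 0.32. Genes are not independent replicates, and this is a description.

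**Figure D3:**
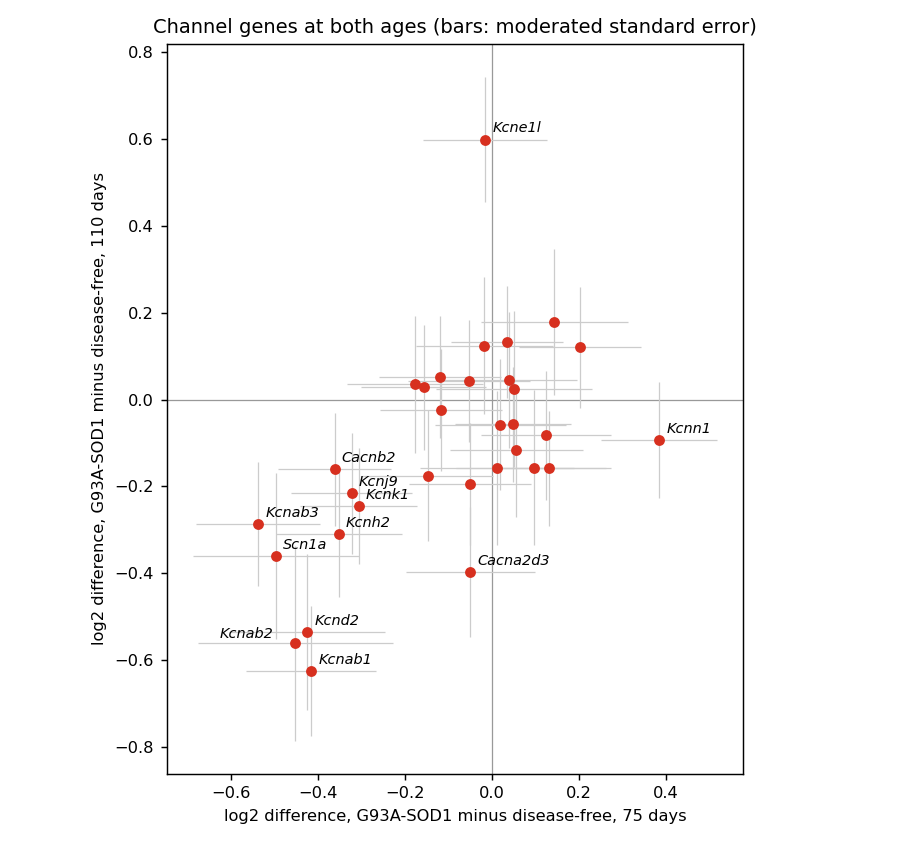
Log2 difference between G93A-SOD1 and disease-free arrays at 75 days (x axis) and 110 days (y axis) for the 32 tested channel genes, with moderated standard errors as bars. The 3 Kcnab genes, Kcnd2, Scn1a, Kcnh2, Kcnk1, Kcnj9 and Cacnb2 lie at the lower left, Kcne1l lies at 0.60 at 110 days and near 0 at 75 days, and Kcnn1 at 0.38 at 75 days.

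With genotype and age as additive terms over all arrays, which gives 1 G93A-SOD1 difference for both ages, 0 of 32 channel genes passed (0.0161% of all probe sets passed as lower and 0% as higher). The smallest adjusted p was 0.216. At an unadjusted p under 0.05, 9 channel genes were lower, beside 8.47% of all probe sets, and 0 were higher, beside 2.82%. They were the 8 genes below the range at both ages and Scn1a. The fit used the same arrays as that count, so this overlap is largely built in and is no further evidence. Kcnab1 stood at -0.52 in this fit (unadjusted p = 0.00187) and Kcnd2 at -0.48 (unadjusted p = 0.00231).

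Whether the difference changed between ages was tested directly. None of 32 channel genes passed (0.177% of all probe sets passed), and 2 had an unadjusted p under 0.05, beside 5.83% of all probe sets. Kcne1l had the largest gain, 0.61 ± 0.20 SE (adjusted p = 0.723), followed by Kcnab3 at 0.25 and Cacna2d1 at 0.21. Kcnn1 had the largest drop, -0.48 ± 0.19 SE (adjusted p = 0.839), followed by Cacna2d3 at -0.35 and Cacng2 at -0.29. The median change over the family was -0.01.

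In disease-free cord, the 110-day arrays were set against the 75-day arrays. Each genotype had 1 array at an age, so age cannot be told apart from other differences between arrays. None of 32 passed (0.0161% of all probe sets did), and 2 were higher and 0 lower at an unadjusted p under 0.05, beside 2.59% and 0.531% of all probe sets. The median was -0.06 with 24 of 32 genes below 0, while all genes stood at -0.00072. This median rested on single arrays: it was -0.12 without the WT-SOD1 and -0.024 without the nontransgenic array of 110 days. Scn1a (0.37), Kcnd2 (0.33) and Kcnab1 (0.31) had the highest values, and Kcna2 (-0.24), Hcn2 (-0.21) and Cacna1a (-0.20) the lowest. The nontransgenic 110-day array weighed on this: it was the highest of all 6 arrays for Scn1a, Kcnd2, Kcnab1, Kcnab2 and Cacna2d3 and the lowest for 12 of 32 channel genes, beside 32% and 25.5% of all genes. In WT-SOD1 cord alone, Scn1a stood at 0.18, Kcnd2 at 0.26 and Kcnab1 at 0.23 between ages, and in nontransgenic cord at 0.57, 0.39 and 0.39.

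The wild-type transgene was compared with none within disease-free cord, 4 arrays, in a fit that also held age. No channel gene of 32 passed (0.0966% of all probe sets passed), 0 had an unadjusted p under 0.05 (1.14% of all probe sets), and the median was 0.01 beside 0.0016 for all genes. The 75-day pair alone gave a median of -0.053 and the 110-day pair alone 0.10. Kcnab2 (-0.28 ± 0.19 SE), Kcnd2 (-0.27) and Scn1a (-0.24) were lowest and Kcnd3 (0.14), Kcne1l (0.13) and Kcnk7 (0.11) highest, each with an adjusted p of 1.00. The Kcnab2 value came from the 110-day pair, at -0.57, since the 75-day pair gave 0.02. Between WT-SOD1 and G93A-SOD1 arrays of 110 days alone, Kcnab1 differed by -0.51, Kcnd2 by -0.37, Kcnab2 by -0.28 and Scn1a by -0.14.

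Genes that anchor, power or respond to these channels were read from lists chosen for this purpose. Of 24 genes of the node, the axon initial segment and channel anchoring 14 were measured and 9 tested, and 0 rose or fell at either age (median -0.02 at 110 days). Ank3, encoding the ankyrin that holds sodium channels at the initial segment, read 776 and 759 at 75 days, 1177 and 788 at 110 days, and 611 and 676 on the mutant arrays, a difference of -0.51 at 110 days (adjusted p = 0.515). Fgf11, of the family that binds sodium channel tails, stood at -0.38 (adjusted p = 0.415). Of 13 measured ion pump and exchanger genes 10 were tested, and Fxyd1, encoding the sodium pump regulator phospholemman, rose at 110 days, by 1.10 (adjusted p = 0.0319). It read 635 to 795 in disease-free cord and 785 and 1521 in mutant cord of the younger and older age. The other 9 did not pass, among them Atp2a2, a calcium pump gene of the endoplasmic reticulum, at -0.66 (adjusted p = 0.116), and the list's median was -0.26. Of 15 measured genes of calcium release and response 9 were tested and 0 passed at either age, with Ryr2 and Camk2b both at -0.53 at 110 days (adjusted p = 0.669 and 0.389) and a median of -0.19. Of 16 measured chloride, TRP and cyclic nucleotide channel genes 7 were tested and 0 passed. Clcn5 stood at -0.32 at 110 days, and Trpc1, too dim to be tested, at -0.43.

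Cell type markers moved on the same arrays. At 110 days the median difference was -0.33 for 11 tested neuronal markers, of which 0 passed. For 4 tested motor neuron markers it was -0.45, and Nefm fell. These 4 stood at -0.82 (Nefm), -0.72 (Nefh), -0.18 (Slc18a3) and -0.18 (Prph). The median was 2.09 for 10 tested microglia and macrophage markers, of which 9 rose. For 8 astrocyte markers the median was 0.17, and Fabp7 and Gfap rose. For 9 cerebellar markers it was -1.08 with 0 passing, for 8 oligodendrocyte markers -0.21, for 5 muscle markers 0.14 and for 4 vessel markers -0.16, also with 0 passing. Sncg, the 1 tested sensory ganglion marker, stood at -0.22, and 2 tested Schwann cell markers had a median of 0.05. At 75 days the neuronal, motor neuron and cerebellar medians were -0.20, 0.04 and -0.57, and none of these lists had a call. What part these markers' cell types had in the channel values was not tested.

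**Figure D4:**
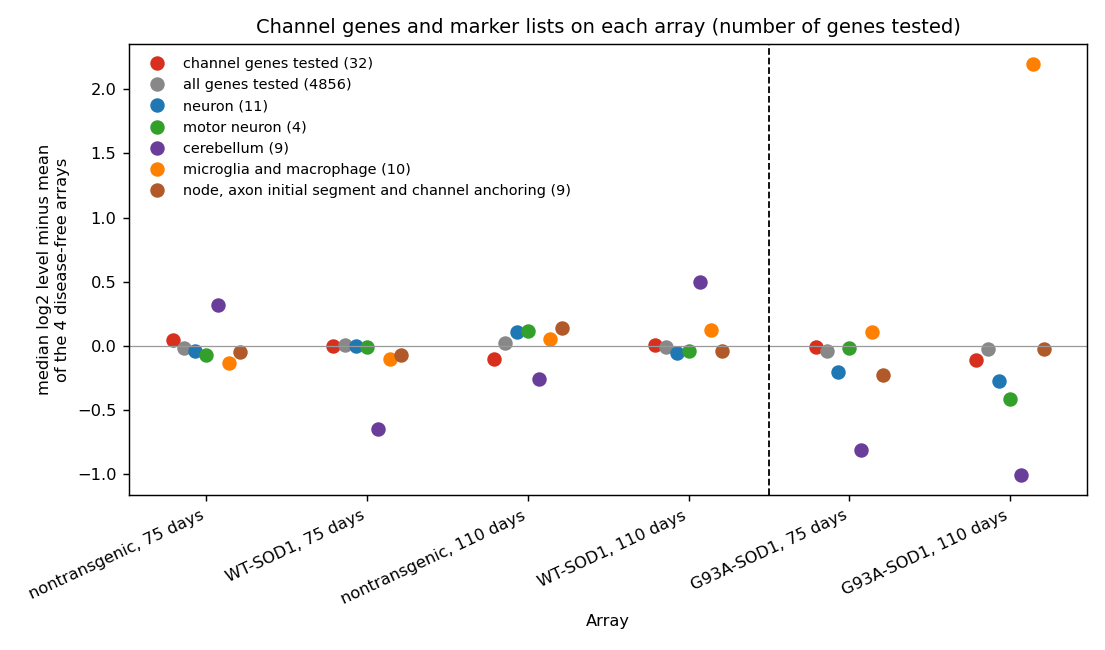
Median log2 level of gene lists on each array, relative to the mean of the 4 disease-free arrays, with the number of genes tested in the key; the dashed line separates the G93A-SOD1 arrays. Tested channel genes stay between -0.11 and 0.05 on all arrays, while cerebellar markers span -1.01 to 0.50 and microglia and macrophage markers reach 2.19 on the 110-day G93A-SOD1 array.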

How the data were processed

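Spinal cord mRNA was measured on 6 Affymetrix arrays. Per the labels' protocols, poly(A) RNA from 4 cords per array was converted to biotin-labelled cRNA and hybridised once. The deposited values are linear intensities of probe sets. The probe summary and the scaling are not given in the sources used here, and no detection calls were used. Of 12488 rows, 66 control probe sets were left out. Intensities were used as deposited, raised to the floor of 31 (25th percentile) and log2-transformed. Probe sets with a mean above the pooled median (79.7) were tested, since a filter that 1 array can pass favours genes high there.

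Symbols came from the platform annotation: 1 symbol for 10833 of 12422 probe sets, more than 1 for 396 and none for 1193. Through Entrez identifiers 10817 matched a RefSeq gene table, and 0 symbols changed. Probe sets ending in _s_at, _r_at or _f_at can cross-hybridise.

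The fits used limma 3.58.1 in R 4.3.3 with Benjamini-Hochberg adjustment at 0.05. The first had 4 means (disease-free and G93A-SOD1 at each age; 2 residual and 5.26 prior degrees of freedom). WT-SOD1 against nontransgenic used the 4 disease-free arrays with age (1 residual degree of freedom, 1 spread of 0.19 pooled over probe sets). The first fit was also run on simulated arrays with known changes at 110 days. It recovered 69.9%, 97.2% and 93.2% of changes of 1.5, 2 and 4 fold. Every simulated probe set had the same spread, while spreads differ between probe sets in the data, so these shares need not hold here.

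Members, gene lists and the rule for named genes were chosen with earlier results of these data known. The rule took, among tested channel genes, the 8 highest and 8 lowest at 110 days, 5 and 5 at 75 days, 3 and 3 in the other comparisons, those with the smallest p and those farthest outside the disease-free range at both ages; Cacna1g and genes given by level alone fall outside it. Alternatives varied the filter, floor, scaling, probe set, design and arrays.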

Additional observations from a re-analysis of the deposited data

How the results depend on the processing

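No paired analysis was possible because each genotype and age has 1 array and the labels give no replicate numbers. The count of channel genes past the test stayed at 0 in all 5 comparisons under every alternative run, except at 110 days, where it was 3 with the spike-in term and between 0 and 5 with 1 disease-free array left out. The 5 came without the WT-SOD1 110-day array. The smallest adjusted p at 110 days lay between 0.113 and 0.279 under the other alternatives that changed the filter, floor or scaling. The median difference over the channel genes at 110 days was -0.015 with no filter on level, where 62 genes counted and many lay at the floor. Over the same 32 genes it was -0.038 with the spike-in term and -0.049 with 1 difference for both ages, and -0.12 to -0.075 with 1 array left out. The 75-day median was 0 with no filter on level, -0.025 with arrays scaled to 1 median, -0.0062 after quantile normalization and -0.016 with a second probe set, the median change between ages lay between -0.043 and 0.022, and the age median between -0.12 and -0.024. For WT-SOD1 against nontransgenic the median was -0.053 to 0.10 with 1 array left out, which leaves no residual degree of freedom and hence no test; the same holds for the spike-in term there. The counts below and above the disease-free range stayed within 1.5 times under another floor and both scalings.

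Of 46 gene and comparison pairs named, 12 changed sign under some alternative. Kcnd2 at 110 days has no value under a second probe set, which lay at the floor there. With a second probe set Kcnq1 stood at -0.046 and Hcn2 at -0.15 at 110 days, Kcnab2 at 0.046 at 75 days, and Kcnd2 at -0.083 for age. With 1 array left out, the 110-day value spanned -0.014 to 0.26 for Kcne1, -0.036 to 0.14 for Kcnn4, -0.091 to 0.18 for Kcnk7 and -0.036 to 0.12 for Cacna1b, the lower ends without the nontransgenic and the upper ends without the WT-SOD1 110-day array. Designs with 1 difference for both ages gave -0.034 for Kcnn4 and -0.0047 for Cacna1b (against the 110-day value) and -0.013 for Cacng2 (against the 75-day value). One of these designs, with G93A-SOD1 and age terms alone, was chosen after seeing the data. For WT-SOD1 against nontransgenic, the 75-day pair alone gave 0.020 for Kcnab2, -0.060 for Kcnd3 and -0.046 for Kcnk7, and the 110-day pair alone -0.57, 0.34 and 0.27. The causes of these changes were not tested. Signal near the floor limits what can be seen of the 30 channel genes not tested, and single arrays limit the rest.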
